A study of Homo sapiens with 9 samples.

Results

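The 10 plasma membrane amino acid transporters SLC7A11, SLC7A5, SLC3A2, SLC7A1, SLC1A4, SLC1A5, SLC38A1, SLC38A2, SLC6A9 and SLC43A1 were chosen by name, with earlier results of these data known, from the 60880 gene IDs counted in SNU5 cells. Each symbol matched 1 Ensembl ID, and all 10 genes had enough counts for a test in every comparison. SNU5 is an established line of human gastric carcinoma, and ramucirumab is a therapeutic antibody that binds the receptor VEGFR2. The cells were treated for 24 h with antibody-bearing gold nanorods (AuNR-Peg-Ab, the NR group), antibody-bearing gold nanospheres (AuSP-Peg-Ab, the SP group) or ramucirumab alone (the Ab group). All 3 groups therefore received the antibody, at 8 μg/mL, and each group had 3 RNA-seq libraries. Untreated cells and gold particles without antibody were not analysed here, so a value in NR or SP can be read only against the free antibody. The study describes the 3 libraries of a group as biological replicates, although the sample labels do not say whether each came from its own culture, and the p-values measure the spread between these libraries.

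The libraries NR1, NR2 and NR3 held 25735410, 13863155 and 15943980 counts. SP1, SP2 and SP3 held 21682836, 22914759 and 20601906 counts, and Ab1, Ab2 and Ab3 held 19566064, 26318227 and 21031024. A count of 0 allows up to 3 counts for counting error alone, which was 0.114 to 0.216 CPM by library totals without TMM factors. All other CPM values are counts scaled to a common library total, with TMM factors. The lowest transporter in any library was SLC43A1 with 123 counts in NR3, so every level reported for the 10 genes lay far above this floor.

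The libraries carried the keratins of an epithelial line, with KRT8 as the most abundant of 6 epithelial markers in all 9 libraries, but KRT19 had 0 or 1 count in every library. The summed level of these markers was 2421 to 2584 CPM with particles and 1109 to 1141 CPM with the free antibody. Of the 5 markers tested, 4 were higher past the adjusted p in each particle group. MET was slightly lower in NR (log2 fold change -0.10, adjusted p = 0.0445 with edgeR) and did not pass in SP (-0.04). CDH1, the gene of E-cadherin, had 79 to 159 counts with particles and only 5 to 9 with the free antibody. KDR, the gene of VEGFR2, had 1 count in NR3 and 0 in the other 8 libraries. The 8 leukocyte markers summed to 5.50 to 8.01 CPM with particles and 1.31 to 2.13 CPM in Ab, with CSF1R as the most abundant and PTPRC, CD3E, MS4A1, LYZ and CD68 at 0 to 2 counts. Of 5 fibroblast markers, which summed to 68.3 to 79.6 CPM with particles and 17.1 to 45.2 CPM in Ab, COL1A1 was the most abundant. Within that list DCN had 280 to 518 counts with particles and 7 to 21 in Ab, and PDGFRB had 150 to 320 and 8 to 11, and both passed the adjusted p. COL1A1, COL1A2 and COL3A1 did not pass it, and COL1A2 had more counts in Ab1 and Ab2 (198 and 278) than in Ab3 (33), the SP libraries (43 to 49) or the NR libraries (0 to 37). The 3 endothelial markers matched of 4 summed to 20.7 to 23.9 CPM with particles and 3.59 to 5.14 CPM in Ab, mostly from CDH5. Mitochondrial genes took 4.36% to 4.66% of the counts in NR and SP libraries and 3.41% to 3.71% in Ab libraries. CSF1R had 56 to 124 counts with particles and 3 to 8 in Ab, and the endothelial VWF had 21 to 34 and 0 to 1. The leukocyte marker CD14 went the other way, with 1 to 7 counts with particles and 8 to 21 in Ab. The Ab libraries thus lacked, or nearly lacked, several markers that all 6 particle libraries carried, CDH1 among them. All 9 libraries are labelled SNU5. Whether the Ab cells came from the same stock as the particle-treated cells was not tested, and with the free antibody as the only comparator a difference in stock and an effect of the particles cannot be told apart for any value set against Ab. The part of these marker and mitochondrial shifts in the transporter results was not tested. In bulk RNA, fewer cells that express a transporter and less of its RNA per cell cannot be told apart.

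Amino acids cross the plasma membrane through carriers that differ in their substrates and in what drives them. Heteromeric carriers pair a light chain such as SLC7A5 (LAT1) or SLC7A11 (xCT) with the glycoprotein SLC3A2 (4F2hc, CD98), which brings the light chain to the cell surface. Sodium-coupled carriers such as SLC38A2 load the cell with small neutral amino acids, and exchangers such as SLC1A5 and SLC7A5 trade these for others, including the leucine that is sensed by mTORC1. When amino acids run short, uncharged tRNA activates the kinase GCN2 (EIF2AK4), eIF2α is phosphorylated and the transcription factor ATF4 is translated, and several of these carriers are known ATF4 targets.

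All 10 transporters were lower in both particle groups than with the free antibody. The summed level of the 10 genes was 8578, 8733 and 8754 CPM in Ab1, Ab2 and Ab3. It was 3965, 4047 and 4072 CPM in the NR libraries and 4055, 4128 and 4072 CPM in the SP libraries, so the groups were far apart and the particle groups overlapped each other. Calls required an adjusted p of at most 0.05 together with a change of at least 2-fold, with p-values from the quasi-likelihood test of edgeR, adjusted by Benjamini-Hochberg over every tested gene. In NR against Ab, 8 of the 10 were called lower, where 10.3% of the 15009 tested genes were called lower. In SP against Ab, the same 8 genes were called lower, where the background was 10.6% of 15068 genes. SLC7A5 and SLC7A1 passed the adjusted p but fell by less than 2-fold. All 10 were past the adjusted p and lower in each comparison, against 36.4% of genes in NR and 36.6% in SP, but since the 10 were chosen with earlier results known these shares are a description and no independent support. The 3 particle libraries lay entirely below the 3 Ab libraries for all 10 in each comparison, which was so for 37.5% of genes in NR and 37.8% in SP. The median log2 fold change of the 10 was -1.28 in NR and -1.14 in SP, beside -0.01 over all genes in both. NR and SP were compared with the same 3 Ab libraries, so the 2 sets of fold changes are not independent.

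**Figure D1:**
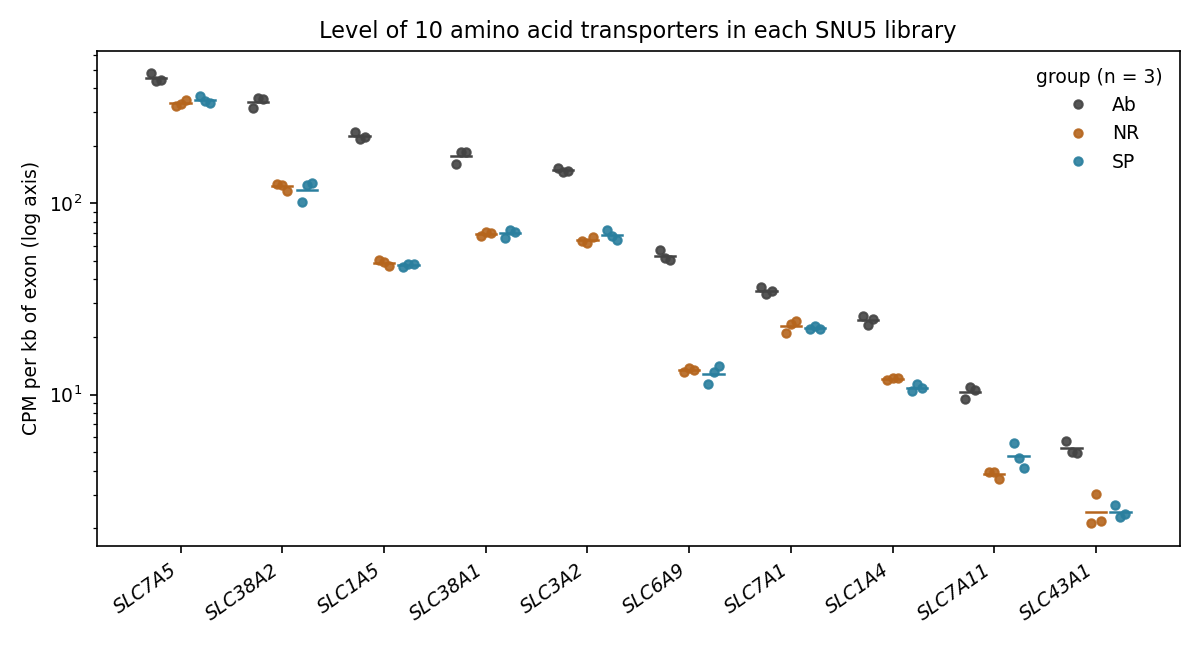
Level of each transporter in CPM per kb of exon (log axis) in the 9 libraries, ordered by the Ab mean, with points for libraries and short lines for group means (n = 3). The Ab points lie above the NR and SP points for every gene, and SLC1A5 drops from the third place in Ab to the fifth with particles.

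Levels can be compared between genes only per length, here as CPM per kb of the union of annotated exons. SLC7A5 was the highest of the 10 in every group, at 453 ± 22.7 CPM per kb in Ab, 333 ± 13 in NR and 347 ± 17 in SP (mean ± SD, n = 3). SLC38A2 came next in every group, with 341 ± 23.3 CPM per kb in Ab, 123 ± 5.65 in NR and 118 ± 13.8 in SP. The gap between these top genes widened with the particles, since the mean of SLC7A5 was 1.33 times that of SLC38A2 in Ab, 2.72 times in NR and 2.94 times in SP. At the other end, SLC7A11 ranked 9 and SLC43A1 ranked 10 in all 3 groups. SLC1A5 ranked 3 in Ab and 5 in NR and SP, and SLC6A9 ranked 6 in Ab and 7 in NR and SP. Neighbours in the order had separate library ranges in Ab and in NR. In SP the ranges of SLC38A1 and SLC3A2 overlapped, as did those of SLC6A9 and SLC1A4, so their order there is not resolved by 3 libraries. The order of genes in every group also depends on the exon lengths used, such as 6392 bases for SLC3A2 and 10015 for SLC38A1. Separate library ranges do not remove that limit.

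The pair of SLC1A exchangers held the largest fall of the 10. SLC1A5 (ASCT2; chromosome 19, 47278140 to 47291851, minus strand, GRCh37) exchanges neutral amino acids including glutamine across the membrane. Its level was 790, 727 and 740 CPM in Ab1, Ab2 and Ab3, but 169, 165 and 156 CPM in the NR libraries and 156, 161 and 160 CPM in the SP libraries. The particle libraries formed a tight group far below the Ab libraries. The log2 fold change was -2.20 in NR against Ab (SE 0.05, adjusted p = 5.59e-25 with edgeR), or 4.59-fold. In SP against Ab it was -2.24 (SE 0.05, adjusted p = 1.04e-24), or 4.72-fold. Only 1.54% of the tested genes in NR and 1.65% in SP had a log2 fold change as low. Part of the exons of SLC1A5, 23.8% of their bases, is shared with other annotated genes, and the sources used here do not say whether counting used strand.

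SLC1A4 (ASCT1; chromosome 2, 65215611 to 65250999, plus strand) exchanges alanine, serine and cysteine. It stood at 178, 161 and 172 CPM in Ab, at 82.5, 85.0 and 84.9 CPM in NR, and at 72.2, 79.2 and 75.1 CPM in SP. Its fall was much smaller than that of SLC1A5, with a log2 fold change of -1.01 in NR (SE 0.05, adjusted p = 1.20e-16) and -1.16 in SP (SE 0.05, adjusted p = 6.62e-17). The 95% intervals of the 2 genes were -1.12 to -0.91 for SLC1A4 and -2.29 to -2.10 for SLC1A5 in NR, and the difference itself was not tested. SLC1A4 lay at the edge of the 2-fold minimum in NR. It lost the call there with library totals in place of TMM (log2 fold change -0.987) and without Ab1 (-0.984).

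Among the uptake carriers coupled to sodium, SLC6A9 fell most. SLC6A9 (GLYT1; chromosome 1, 44457172 to 44497139, minus strand) takes up glycine. Its level was 301, 271 and 267 CPM in Ab, 69.0, 72.0 and 70.9 CPM in NR and 59.4, 68.6 and 73.8 CPM in SP. The log2 fold change was -1.98 in NR (SE 0.05, adjusted p = 6.29e-23), or 3.95-fold, and the Ab libraries were again clear of all others. In SP it was -2.05 (SE 0.07, adjusted p = 1.43e-13), or 4.13-fold. A share of 7.87% of its exon bases overlaps CCDC24 on the other strand, a gene with 89 to 141 counts in NR and 41 to 92 in Ab.

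The system A carrier SLC38A2 (SNAT2; chromosome 12, 46751971 to 46766556, minus strand) and the related SLC38A1 (SNAT1; chromosome 12, 46576846 to 46663800, minus strand) import glutamine, alanine and other small neutral amino acids. SLC38A2 had 2042, 2315 and 2294 CPM in Ab, 826, 812 and 756 CPM in NR and 667, 804 and 836 CPM in SP. SLC38A1 had 1614, 1862 and 1849 CPM in Ab, 677, 708 and 697 CPM in NR and 661, 728 and 710 CPM in SP. For both genes Ab1 was the lowest Ab library and was still above every particle library by a wide margin. The log2 fold change of SLC38A2 was -1.47 in NR (SE 0.05, adjusted p = 4.32e-18) and -1.52 in SP (SE 0.10, adjusted p = 5.48e-06), where SP1 stood below SP2 and SP3. SLC38A1 changed by -1.35 in NR (SE 0.05, adjusted p = 1.14e-17) and by -1.34 in SP (SE 0.05, adjusted p = 7.44e-16). No other gene overlapped the exons of these SLC38A genes.

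The subunits of the heteromeric carriers had unequal fold changes, a difference that was described by ratios and not tested. SLC3A2 (chromosome 11, 62623476 to 62656352, plus strand), the heavy chain, had 980, 933 and 938 CPM in Ab, 405, 399 and 426 CPM in NR and 463, 430 and 413 CPM in SP. The log2 fold change was -1.21 in NR (SE 0.04, adjusted p = 3.10e-20) and -1.12 in SP (SE 0.05, adjusted p = 4.22e-18). SLC7A5 (chromosome 16, 87863629 to 87903113, minus strand), the light chain of the large neutral amino acid exchanger LAT1, had 2280, 2082 and 2108 CPM in Ab, 1530, 1579 and 1653 CPM in NR and 1745, 1630 and 1588 CPM in SP. This was the smallest change of the 10, with a log2 fold change of -0.44 in NR (SE 0.04, adjusted p = 2.44e-10) and -0.37 in SP (SE 0.05, adjusted p = 3.46e-08), although no particle library reached the lowest Ab library. The pseudogene SLC7A5P1 held 22 to 150 counts, 0.085% to 0.32% of those of SLC7A5, so few counts were assigned to this copy.

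SLC7A11 (chromosome 4, 139085251 to 139163503, minus strand), the light chain of the cystine-glutamate exchanger that supplies cysteine for glutathione, was much scarcer. It had 91.5, 106 and 102 CPM in Ab, 38.1, 38.1 and 34.7 CPM in NR and 54.0, 44.8 and 39.8 CPM in SP. The groups did not overlap, and SP lay between NR and Ab. The log2 fold change was -1.43 in NR (SE 0.06, adjusted p = 1.03e-17) and -1.10 in SP (SE 0.10, adjusted p = 7.22e-07). In SP it fell just short of the 2-fold minimum without SP3 (-0.999). The antisense gene SLC7A11-AS1, which shares 8.97% of the exon bases, had 3 to 22 counts, against 531 or more for SLC7A11.

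SLC7A5 RNA, but not SLC7A11 RNA, was higher relative to SLC3A2 RNA with the particles. Per kb, the ratio of SLC7A5 to SLC3A2 was 3.04 ± 0.069 in Ab (range 2.99 to 3.12), 5.20 ± 0.12 in NR (5.07 to 5.31) and 5.10 ± 0.056 in SP (5.05 to 5.16; mean ± SD, n = 3 each). The ranges of the particle groups overlapped each other and lay clear of Ab. The summed level of 6 light chains known to pair with SLC3A2 (SLC7A5, SLC7A6, SLC7A7, SLC7A8, SLC7A10 and SLC7A11), divided by that of SLC3A2, moved likewise from 3.14 ± 0.06 in Ab to 5.35 ± 0.13 in NR and 5.26 ± 0.059 in SP. SLC7A5 made up 96.8% to 97.4% of this sum over the 9 libraries. The share of SLC7A11 was 2.23% ± 0.26 in Ab, 1.12% ± 0.097 in NR and 1.33% ± 0.14 in SP. The ratio of SLC7A11 to SLC3A2 was 0.0697 ± 0.0069 in Ab, 0.0599 ± 0.0051 in NR and 0.0700 ± 0.0067 in SP. Its range in Ab (0.0618 to 0.075) overlapped that of each particle group, while NR (0.054 to 0.0633) lay just below SP (0.0639 to 0.0772). These ratios are descriptions of RNA levels with no test, and their absolute size depends on the exon lengths used.

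**Figure D2:**
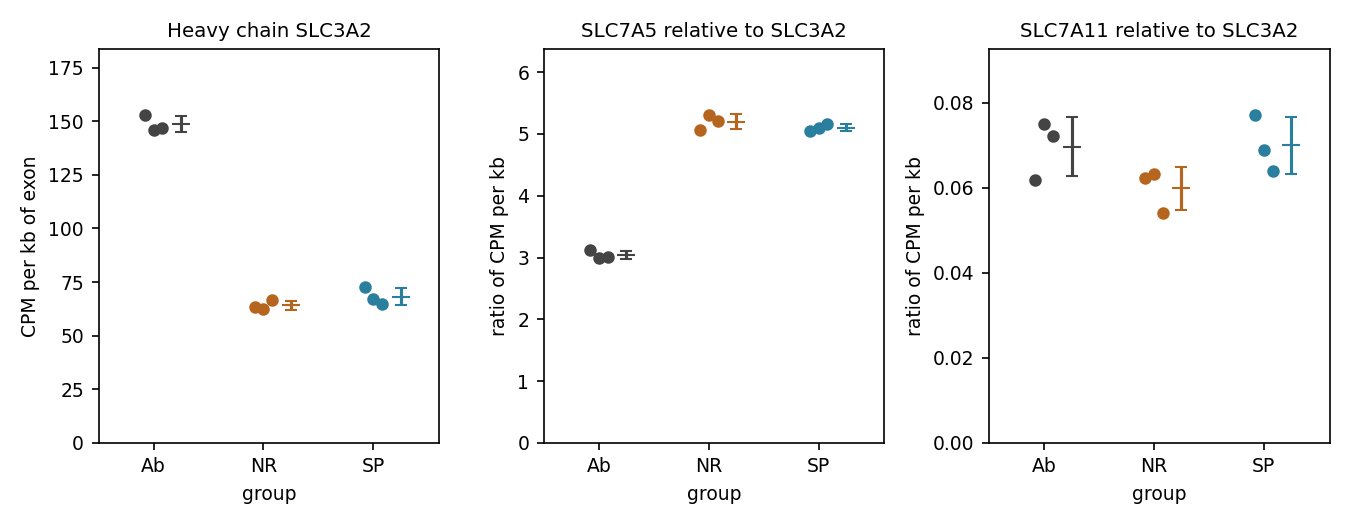
Level of the heavy chain SLC3A2 in CPM per kb of exon (left), and the ratios of SLC7A5 (centre) and SLC7A11 (right) to it, by group, with points for libraries and bars for mean ± SD (n = 3). The ratio of SLC7A5 to SLC3A2 runs from 2.99 to 3.12 in Ab and from 5.05 to 5.31 with particles, while the range of the SLC7A11 ratio in Ab overlaps those of NR and SP.

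The cationic amino acid transporter SLC7A1 (CAT1; chromosome 13, 30083551 to 30169825, minus strand), which takes up arginine and lysine without a heavy chain, had 280, 259 and 267 CPM in Ab, 161, 179 and 186 CPM in NR and 169, 175 and 168 CPM in SP. Its log2 fold change was -0.61 in NR (SE 0.05, adjusted p = 1.55e-11) and -0.65 in SP (SE 0.05, adjusted p = 8.28e-13), with no overlap with Ab but short of 2-fold. SLC43A1 (LAT3; chromosome 11, 57252007 to 57283253, minus strand), a facilitative carrier of large neutral amino acids, had the fewest counts, with 388, 460 and 360 in Ab, 193, 148 and 123 in NR and 204, 188 and 173 in SP. The fold change on the log2 scale was -1.12 in NR (SE 0.12, adjusted p = 2.45e-09) and -1.09 in SP (SE 0.10, adjusted p = 2.50e-10). Its standard error in NR was the widest of the 10.

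**Figure D3:**
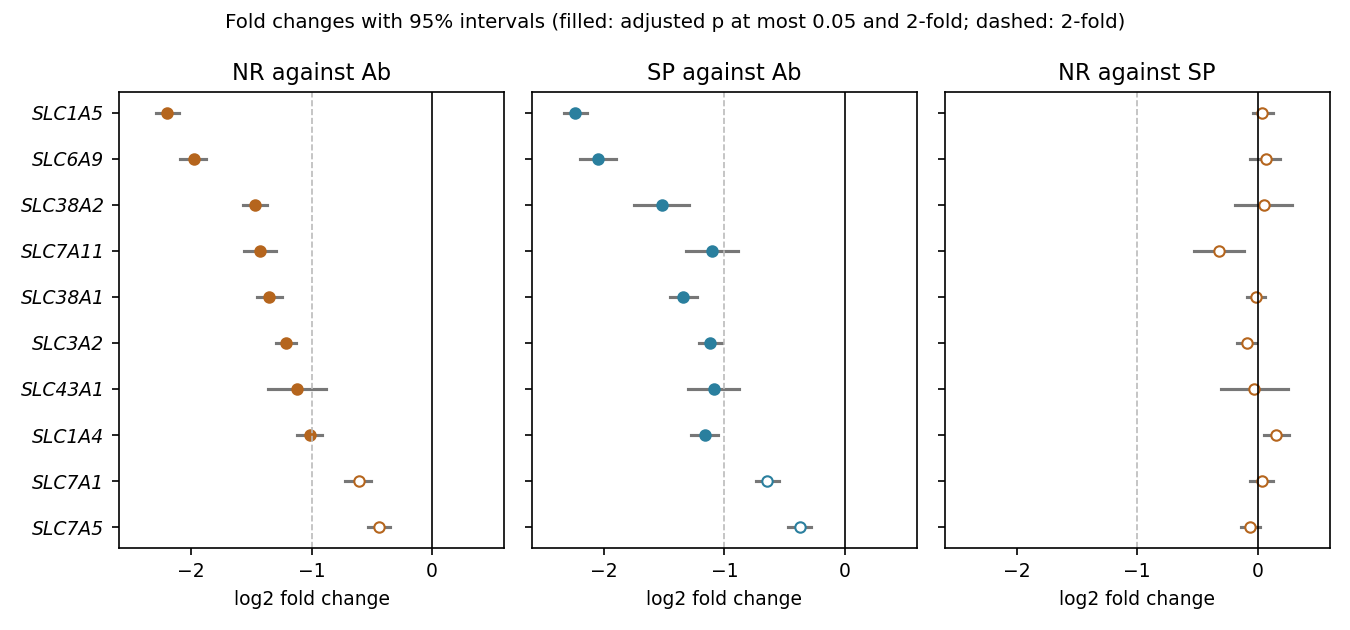
log2 fold change of each transporter with its 95% interval in NR against Ab, SP against Ab and NR against SP (6 libraries each), with filled points for genes called and a dashed line at 2-fold lower. In the left and centre panels 8 of 10 points are filled, and in the right panel no point is filled and the 10 intervals lie between -0.53 and 0.29.

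The particle groups were compared directly in NR against SP, and by the paper's methods the particles differed in size and supplier as well as shape. None of the 10 transporters passed the adjusted p with edgeR, where 0.443% of 14903 tested genes did. DESeq2, which gave an adjusted p to 8 of the 10, also passed 0. At an unadjusted p under 0.05 there were 3 of the 10, beside 12.9% of all genes. These were SLC7A11, SLC1A4 and SLC3A2. SLC7A11 was lower in every NR library than in any SP library, with a log2 fold change of -0.32 (95% interval -0.53 to -0.11, adjusted p = 0.173). SLC1A4 was higher in every NR library than in any SP library, with a log2 fold change of 0.15 (0.05 to 0.26, adjusted p = 0.167). The libraries of NR and SP did not overlap for 17.8% of all genes. For SLC3A2 the log2 fold change was -0.09 (-0.17 to -0.01, adjusted p = 0.344), and the libraries overlapped. Of these 3, only SLC7A11 passed the adjusted p under any alternative run. Its adjusted p was 0.00673 without SP3 (log2 fold change -0.42), 0.318 without SP1 (-0.19), and 2.24e-04 when every gene with at least 1 count was kept.

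The remaining 7 transporters had intervals that included 0. The interval was -0.09 to 0.06 for SLC38A1, -0.14 to 0.02 for SLC7A5, -0.04 to 0.13 for SLC1A5 and -0.06 to 0.13 for SLC7A1. It was wider for SLC6A9 (-0.06 to 0.19), SLC38A2 (-0.19 to 0.29) and SLC43A1 (-0.30 to 0.25). A difference between the particle groups as large as 2-fold lies outside all 10 intervals, and so does a 1.5-fold difference.

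ATF4 and its partners bind the C/EBP-ATF response element (CARE), and since the 10 genes moved together the CARE letters TGATGNAA were looked for on both strands of the RefSeq promoters (GRCh38.p14), from 250 bases before to 50 bases after each start. Of the 10 genes, 9 matched 16 promoter entries, and SLC7A11 was not matched. The letters occurred in 5 of the 16 entries: the only entry of SLC7A1, 1 of 2 for SLC1A4 and for SLC38A1, and 1 of 3 for SLC3A2 and for SLC1A5. Of all 35116 promoter entries, 3.62% held them. The 5 windows of 30 bases are shown 5′ to 3′ on the strand of the gene because they show where these letters lie, with the matched letters in capitals (TGATGNAA, or its complement TTNCATCA where the match was on the other strand).
SLC1A5: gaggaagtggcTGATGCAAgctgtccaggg
SLC1A4: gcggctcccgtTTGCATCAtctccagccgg
SLC38A1: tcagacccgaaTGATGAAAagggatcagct
SLC7A1: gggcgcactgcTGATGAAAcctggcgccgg
SLC3A2: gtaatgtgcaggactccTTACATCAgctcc

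Each start below is that of the entry with the match. The window of SLC1A5 is chr19:46784893-46784922 (minus strand), with the match 97 bases before the start. This entry lies downstream of another SLC1A5 entry, at 46788545 to 46788844, which held no match. That of SLC1A4 is chr2:64989381-64989410 (plus strand), with the match 7 bases before the start. The SLC38A1 window is chr12:46266502-46266531 (minus strand), with the match 4 bases before the start. Those of SLC7A1 (chr13:29595663-29595692, minus strand) and SLC3A2 (chr11:62881719-62881748, plus strand) hold the match 8 and 38 bases after the start. The antioxidant response element letters TGACNNNGC, bound by NRF2, were in 4 entries (SLC7A5, SLC3A2, SLC7A1 and SLC1A5), beside 13.3% of all entries. The E-box letters CACGTG, bound by MYC and related factors, were in 3 entries (SLC7A5, SLC1A5 and SLC43A1), beside 7.26% of all entries. No matches of the 3 motifs overlapped each other in these promoters. The genes with CARE letters included the largest fall (SLC1A5) and one of the smallest (SLC7A1). SLC6A9, SLC38A2 and SLC43A1, which fell by more than 2-fold, had none in these promoters, and neither had SLC7A5, the smallest fall. A match is a description of the letters and not evidence that a factor was bound.

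The other plasma membrane amino acid transporters did not share a direction. Of 34 listed, 12 had enough counts in NR against Ab, of which 5 were higher, 6 lower and 1 not past the adjusted p, where 36.4% of all genes were higher and 36.4% lower. In SP against Ab 13 were tested, of which 5 were higher, 5 lower and 3 not past it, where 36.4% of all genes were higher and 36.6% lower. Their median log2 fold change was 0.06 in NR and 0.44 in SP. SLC43A2 (LAT4), the paralog of SLC43A1, moved the opposite way, with 253, 144 and 197 counts in NR, 293, 257 and 224 in SP and only 52, 78 and 77 in Ab. It was called higher, with a log2 fold change of 1.78 in NR (SE 0.15, adjusted p = 2.40e-11) and 1.91 in SP (SE 0.15, adjusted p = 2.86e-12). The light chain SLC7A6, which pairs with SLC3A2, was higher by 0.70 in NR and 0.71 in SP on the log2 scale (adjusted p = 1.35e-09 and 1.39e-09). Other annotated genes on the opposite strand share 55.6% of its exon bases, and whether counting used strand is not known. The glutamate transporter SLC1A1, of the same family as SLC1A5, was higher by 0.69 and 0.78 (adjusted p = 1.42e-11 and 2.98e-11). SLC38A5, which carries glutamine like SLC38A1, was lower, at -0.90 and -0.85 (adjusted p = 7.25e-16 and 2.60e-14). The cationic transporter SLC7A2 was lower, at -0.79 and -0.84 (adjusted p = 1.25e-12 and 6.57e-04). These last 4 paralogs were picked with their values known.

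Inside the cell, 8 genes listed as lysosomal amino acid transporters were tested. Of these, 6 were lower and 1 higher in NR against Ab, and 5 were lower and 2 higher in SP. The gene that was higher in NR was SLC29A3 (log2 fold change 0.85, and 0.94 in SP), which is a nucleoside transporter and not an amino acid transporter. Over all genes 36.4% to 36.6% were past the adjusted p in each direction. The medians of the 8 were -0.52 and -0.49 on the log2 scale, beside -0.01 over all genes. MFSD12, which brings cysteine into lysosomes and melanosomes, was the only one called, at -1.11 in NR (SE 0.04, adjusted p = 1.13e-18) and -1.19 in SP (SE 0.05, adjusted p = 7.23e-19). Of 10 mitochondrial amino acid carriers tested, 6 were higher and 1 lower in NR, and 7 were higher and 1 lower in SP. The share of all genes was again 36.4% to 36.6% in each direction, and the medians of the carriers were 0.43 and 0.39. SLC25A29, a carrier of basic amino acids, was called higher, with a log2 fold change of 1.70 in NR (SE 0.15, adjusted p = 5.66e-11) and 1.42 in SP (SE 0.15, adjusted p = 3.43e-09).

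The GCN2-ATF4 pathway was mostly lower with the particles as well. Of 32 genes listed and tested, 28 were lower and 2 higher in NR against Ab, and 28 were lower and 3 higher in SP, with 25 called lower in NR and 24 in SP. Over all genes 36.4% in NR and 36.6% in SP were lower past the adjusted p, and 10.3% and 10.6% were called lower. On the log2 scale the median was -1.63 in NR and -1.72 in SP, beside -0.01 over all genes. It was the same with the genes at the detection floor set to their bounds, 2 genes in NR and 1 in SP. ATF4 itself had 15860, 20093 and 16507 counts in Ab, 8566, 4265 and 4746 in NR and 5718, 6405 and 6117 in SP. This was a log2 fold change of -1.36 in NR (SE 0.05, adjusted p = 1.72e-20) and -1.52 in SP (SE 0.05, adjusted p = 1.11e-20). EIF2AK4, the gene of GCN2, was slightly higher, by 0.20 in NR (adjusted p = 6.02e-04) and 0.23 in SP (adjusted p = 1.99e-04). Both are given because the list is named for them.

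Among genes of this list that averaged at least 100 counts in the higher group, the 5 with the largest change in NR were all called lower, with fold changes beyond those of the 10 transporters. FGF21 and CBS, with fewer counts, had 0 to 1 and 0 to 6 counts with particles against 37 to 51 and 53 to 89 in Ab. The secreted glycoprotein gene STC2 had a log2 fold change of -4.45 in NR and -4.40 in SP. For CHAC1, which degrades glutathione, the values were -4.35 and -4.14. DDIT3 (CHOP), a transcription factor of the stress response, stood at -3.94 and -3.56. The stress gene NUPR1 stood at -3.70 and -4.06. SESN2, the leucine sensor that restrains mTORC1, stood at -3.68 and -3.52.

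**Figure D4:**
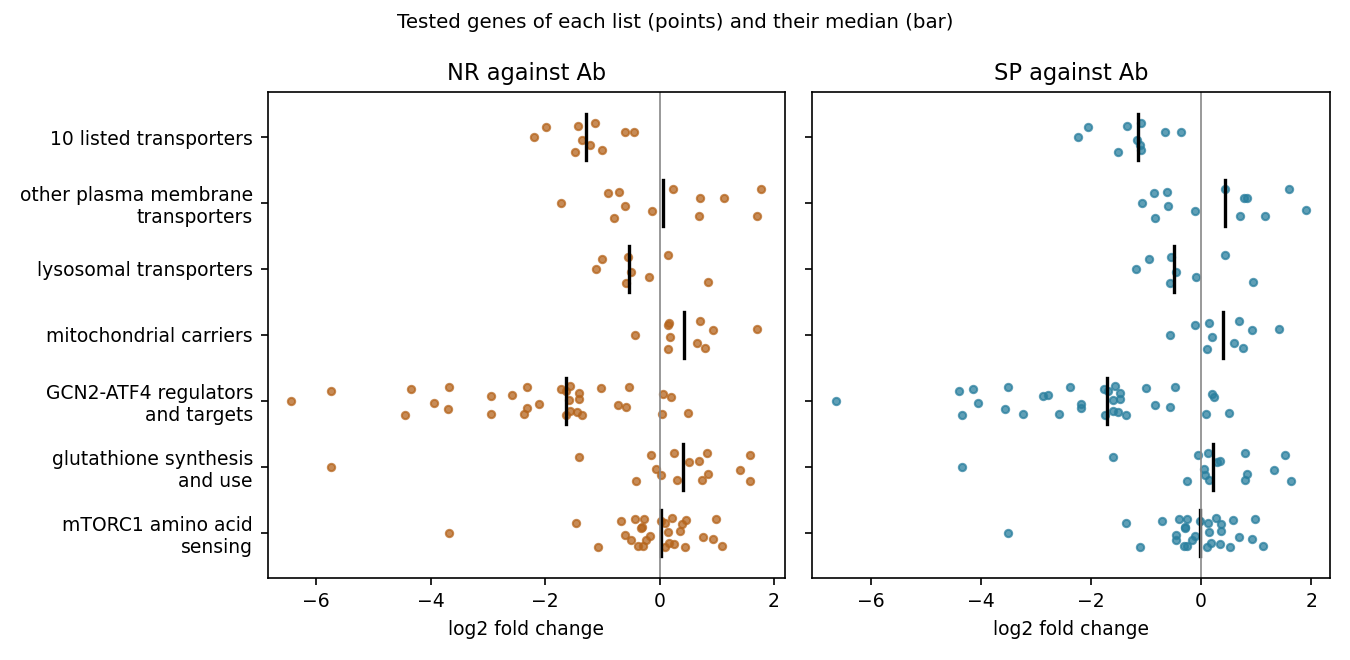
log2 fold change of each tested gene (points) and the median (bar) for the 10 transporters and 6 related gene lists, in NR against Ab and SP against Ab (6 libraries each). The points are fitted values, the bars of the 10 transporters and of the GCN2-ATF4 list lie below -1 in both panels, and the other lists spread to both sides of 0.

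SLC7A11 supplies cystine for glutathione, and a list of genes that make or use glutathione or belong to the related thioredoxin and NRF2 response was mixed. Of 16 genes tested, 10 were higher and 4 lower in NR against Ab, and 9 were higher and 3 lower in SP, with medians of 0.41 and 0.22, beside 36.4% to 36.6% of all genes in each direction. NQO1, a quinone reductase and a known NRF2 target, was higher by 1.58 and 1.53 on the log2 scale. The surface enzyme GGT1, which cleaves extracellular glutathione, was higher by 1.58 and 1.64, and glutathione reductase GSR by 1.41 and 1.32. Of the exon bases of GGT1, 56.5% are shared with another annotated gene on the same strand. CTH, which makes cysteine from cystathionine and is also on the GCN2-ATF4 list, was lower, at -1.40 and -1.61. The 3 genes of glutathione synthesis proper, picked with their values known, did not share a direction. GCLM, the modifier subunit of the rate-limiting enzyme, was higher by 0.30 (adjusted p = 6.01e-05) and 0.29 (adjusted p = 3.44e-04). Its catalytic subunit GCLC had log2 fold changes of -0.15 (adjusted p = 0.02) and -0.06 (adjusted p = 0.382), and glutathione synthetase GSS of -0.06 (adjusted p = 0.329) and 0.05 (adjusted p = 0.477).

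Of 29 tested genes of amino acid sensing by mTORC1, 11 were higher and 12 lower in NR, and 11 were higher and 14 lower in SP, with medians of 0.02 and -0.03. These counts are shares of 37.9% higher and 41.4% lower in NR, and of 37.9% and 48.3% in SP, beside 36.4% to 36.6% of all genes in each direction. SESN2, named above, is also on this list. FLCN, a partner of the Rag GTPases, had log2 fold changes of -1.46 and -1.36, and the Rag GTPase gene RRAGC of -1.08 and -1.12. SEC13, a subunit shared by GATOR2 and the COPII coat, was higher by 1.10 and 1.12. In NR against SP, no gene of these 6 lists passed the adjusted p with edgeR. At an unadjusted p under 0.05 there were 0 of 15 other plasma membrane transporters, 2 of 8 lysosomal transporters, 2 of 10 mitochondrial carriers, 9 of 30 GCN2-ATF4 genes, 5 of 15 glutathione genes and 4 of 30 mTORC1 genes, beside 12.9% of all 14903 genes tested.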

How the data were processed

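Poly-A RNA of 9 libraries was sequenced, 3 in each of NR, SP and Ab. The authors used HISAT2 for alignment to hg19 (version 2.1.0 in the submitters' processing notes, which also list DESeq2 1.16.1 and a mouse build) and deposited raw counts per Ensembl gene without scaling. The counter is named in more than 1 way, and strand and annotation release are not given in the sources used here. IDs were matched without version suffix, which 10363 carried, to GENCODE release 44 on GRCh37. Of 60880 IDs, 59858 were named, and the 1022 others held 0.102% to 0.115% of a library's counts.

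Groups were compared in pairs, 6 libraries at a time, with edgeR 4.0.16 in R 4.3.3 (TMM, filterByExpr with a minimum count of 10 and a minimum total count of 15, robust quasi-likelihood fit, Benjamini-Hochberg adjustment over all genes tested). Standard errors were derived from the log2 fold change and its F statistic, and intervals cover 95%. CPM per kb used the union of annotated exons. The chi-square per gene between libraries within a group was 1.8 to 6.81, which measures spread against counting error only. It cannot show whether the libraries came from separate cultures, and each library was counted as 1 replicate. The fits were also run on simulated counts, and no outcome of those runs is reported here. The members and lists were chosen with earlier results of these data known. Named were the 10 transporters and, of each list, up to 5 genes called in both particle groups with the largest change in NR against Ab, provided that the higher group averaged 100 counts or more, and, for each transporter, the 3 genes with the most like pattern. Alternatives were DESeq2 1.42.0, RLE or library-total scaling, 2 other filters, all 9 libraries in the fit, a replicate block, a 1.5-fold minimum, glmTreat and each library left out. Python 3.11.15 was used for tables.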

Additional observations from a re-analysis of the deposited data

How the results depend on the processing

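The fold changes of the 10 transporters against Ab kept their direction under the 13 alternatives per comparison that tested for any change. Each also stayed on its side of the adjusted p there, and between 7 and 8 were called when single libraries were left out. With a 1.5-fold minimum 9 were called in each comparison, and with glmTreat, which tests against 2-fold, 6 were. The calls lost with glmTreat were SLC1A4 (adjusted p = 0.842) and SLC43A1 (0.31) in NR against Ab. In SP against Ab they were SLC7A11 (0.296) and SLC43A1 (0.387). Over all genes, 6348 were called in NR and 6385 in SP at 1.5-fold, and 2061 and 2131 with glmTreat. In NR against SP, where 3 genes were called, the number was 0 with DESeq2, 27 with at least 1 count, 5 at 1.5-fold, 0 with glmTreat and 0 (without NR2) to 28 (without NR1) with single libraries left out, among them 5 (SP3 left out) and 1 (SP1 left out). Of the 10 transporters, 0 to 1 passed the adjusted p there with single libraries left out (1 without SP3), and 1 with at least 1 count, in each case SLC7A11. The cause was not tested.

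The sign of small log2 fold changes in NR against SP turned for SLC7A1 without NR3 (-0.01), SLC38A1 without NR1 (0.00) or SP2 (0.02), SLC38A2 without SP1 (-0.04), SLC6A9 without SP1 (-0.01) and SLC43A1 without NR1 (0.08), NR3 (0.03) or SP1 (0.04). With single libraries left out they ranged from -0.01 to 0.10 for SLC7A1, -0.05 to 0.02 for SLC38A1, -0.04 to 0.12 for SLC38A2, -0.01 to 0.14 for SLC6A9 and -0.19 to 0.08 for SLC43A1. Deviations of same-numbered libraries correlated at -0.22 to 0.10, and those of different-numbered libraries at -0.11 to 0.24. In SP against Ab the same-numbered pairs (0.05 to 0.10) lay above the others (-0.08 to -0.01). In NR against Ab they ran from -0.22 to -0.02, beside -0.11 to 0.24 for the others. With 3 libraries per group these values cannot show whether libraries with the same number shared a culture or batch. With the replicate number as a block, 1 of the 10 transporters passed the adjusted p in NR against SP (SLC7A11, adjusted p = 0.0441 with edgeR). Another scaling moved the median of all genes by less than 0.1 on the log2 scale. Depth limits mainly SLC43A1, with 123 to 460 counts.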

Other observations

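The genes whose patterns over the 9 libraries lay closest to those of the transporters were found among 10763 genes, by the root mean square difference of log2 CPM after centring on the Ab mean. The points are libraries of 3 treatment groups, so the likeness includes the difference between particles and antibody, and it is a description with no test. Closest to SLC1A5 were RBCK1 (difference 0.05), CEBPG (0.071), a C/EBP factor that pairs with ATF4, and PSAT1 (0.077), an enzyme of serine synthesis. SLC6A9 was closest to HERPUD1 (0.079), a gene of endoplasmic reticulum stress, the cysteinyl-tRNA synthetase CARS1 (0.084) and SPHK1 (0.085). SLC3A2 was closest to the mitochondrial protease LONP1 (0.041), the integrin ITGA3 (0.041) and BRPF3 (0.044). SLC38A1 was closest to KLF3 (0.037), CD55 (0.055) and CCDC174 (0.057), and SLC38A2 to YOD1 (0.073), MARK3 (0.075) and CCDC59 (0.08).

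For SLC7A5 the closest were CARM1, LARP1 and WIZ, each at 0.034, and for SLC7A1 they were IQGAP3 (0.04), TRIM41 (0.043) and EIF2B4 (0.044), a subunit of the exchange factor of eIF2. SLC1A4 was closest to LEMD2 (0.052), PGBD2 (0.054) and PTRH2 (0.057). The distances were longest for SLC7A11, with ARID3B (0.11), ZNF419 (0.12) and ARID3A (0.13), and for SLC43A1, with HRK (0.098), LHFPL2 (0.1) and DGKD (0.1).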
